A study of Mus musculus with 8 samples.

Results

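The 8 genes described here carry iron through the absorptive cell of the small intestine. Cybrd1 and Slc11a2 act at the luminal membrane, Fth1 and Ftl1 store iron in the cytosol, Slc40a1 and Heph release it to the blood side, Tfrc takes up transferrin-bound iron and Hmox1 frees iron from heme. They were chosen by name, with earlier results of these data known. All 8 had a value in each of the 8 samples, among 13080 genes with a value. Intestinal crypt organoids, epithelial cultures grown in Matrigel with IntestiCult medium from isolated mouse crypts, were compared between 4 WT and 4 MG53-TG samples by RNA sequencing. MG53-TG mice overexpress MG53, the membrane repair and ubiquitin ligase protein encoded by Trim72, throughout the body, and the WT were their littermates. The study's methods take the crypts from the small intestine, and one passage of its text calls the organoid genotypes MG53;Lgr5 and Lgr5 rather than MG53-TG and WT. The mice's age, the promoter of the transgene and whether each sample came from a separate animal are not given in the sources used here. The p-values below therefore measure the spread between these samples, which may be technical. The deposited values are FPKM, a level scaled to transcript length and to the mapped fragments of the sample, given for each transcription start and end. A gene was given the sum over its start events, or over its end events where that sum was higher on average.

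Ferric iron in the gut lumen is reduced at the brush border, enters the enterocyte through a proton-coupled transporter and is either held in ferritin or exported by ferroportin, which works together with a membrane ferroxidase. Ferritin that is not emptied leaves the body when the enterocyte is shed, so storage and export compete for the same iron. Iron regulatory proteins bind hairpins in mRNA, the iron-responsive elements: in a 5′ UTR they hold back translation, and in a 3′ UTR they protect the mRNA from decay. Several of these genes are also known targets of the hypoxia factor HIF-2α, which Epas1 encodes.

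The hairpins are shown because they divide the genes into mRNAs that carry one at the front, mRNAs that carry them at the back and mRNAs in which none was found. The search was run on the annotated transcript strand (GENCODE, GRCm38) for the loop letters CAGTGN, preceded by an unpaired C and by 5 bases that pair, G with U included, with the 5 bases after the loop. Of 58797 protein-coding transcripts, 0.961% held such a match. The 30 bases around each match are printed 5′ to 3′ with the 6 loop bases in capitals. The ferritin heavy chain hairpin lies at chr19:9982731-9982760 on the plus strand, that of the light chain at chr7:45459779-45459808 on the minus strand and that of ferroportin at chr1:45925465-45925494 on the minus strand, each in the 5′ UTR. The 4 matches of the transferrin receptor lie in its 3′ UTR on the plus strand, at chr16:32631218-32631247, chr16:32631597-32631626, chr16:32631662-32631691 and chr16:32631709-32631738, in this order below.
Fth1: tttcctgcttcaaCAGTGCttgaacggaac
Ftl1: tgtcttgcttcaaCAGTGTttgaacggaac
Slc40a1: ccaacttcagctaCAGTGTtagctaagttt
Tfrc site 1: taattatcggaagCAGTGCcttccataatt
Tfrc site 2: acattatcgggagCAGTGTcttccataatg
Tfrc site 3: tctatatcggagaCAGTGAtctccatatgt
Tfrc site 4: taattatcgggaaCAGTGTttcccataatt
No transcript of Slc11a2, Cybrd1, Heph or Hmox1 held a match to these letters with that pairing, which says nothing of other forms of the element.

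The transgene was checked first. No WT sample listed Trim72, whose level in the MG53-TG samples was 16.4, 27.4, 31.9 and 36.5 FPKM. FPKM summed over all start events ranged from 269837 to 273797 in WT and from 269094 to 284330 in MG53-TG, and the number of reads behind the values is unknown. Genes were tested with limma as log2(FPKM + 1) where their mean reached 0.5 FPKM. At an adjusted p of at most 0.05, 44.7% of 10271 genes were called, 15.5% higher and 29.2% lower in MG53-TG. The groups did not overlap for 44.8% of them, 15.7% higher and 29.1% lower. Over all genes tested, log2 fold changes had a median of -0.17, and scaling the samples by median of ratios moved it by 0.16, whereas quantile normalization moved it by 0.12. Of the genes called, 34.6% were higher in the values as deposited, 50.2% after median-of-ratios scaling and 44.8% after quantile normalization. The organoids carried the markers of small intestinal epithelium. All 12 enterocyte markers were higher in MG53-TG, with a summed level of 708 to 823 FPKM in WT and 8731 to 11554 FPKM in MG53-TG. For the MG53;Lgr5 crypt organoids, the study's text reports lower stem and absorptive markers and higher secretory markers. The enterocyte list, chosen here rather than taken from the study, ran the other way. Of 8 stem cell markers, 6 were lower and 2, Lgr5 and Smoc2, were not called, and their summed level was 500 to 690 FPKM against 55.6 to 308 FPKM. The sum for Lgr5 leaves out a further start that lies on no annotated exon boundary. MG53-TG samples 3 and 4 had the highest enterocyte sums, 11230 and 11554 FPKM, and the lowest stem cell sums, 90.3 and 55.6 FPKM. In bulk RNA, more cells of a type cannot be told apart from more RNA per cell, and the part of these markers in the results below was not tested.

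All 8 genes were called, 5 higher and 3 lower in MG53-TG, where 44.7% of all genes tested were called in either direction. The genes of luminal import, storage and export, Slc11a2, Fth1, Ftl1, Slc40a1 and Heph, were higher. The ferric reductase Cybrd1, the transferrin receptor Tfrc and the heme oxygenase Hmox1 were lower. For 7 of the 8 genes the groups did not overlap, against 44.8% of all genes, and Ftl1 was the exception. With 4 samples against 4, the smallest p of the exact permutation test over 70 relabellings is 0.0286, and these 7 genes reached it. Because the 8 genes were chosen with earlier results known, setting their counts beside the shares of all genes is not a test.

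**Figure D1:**
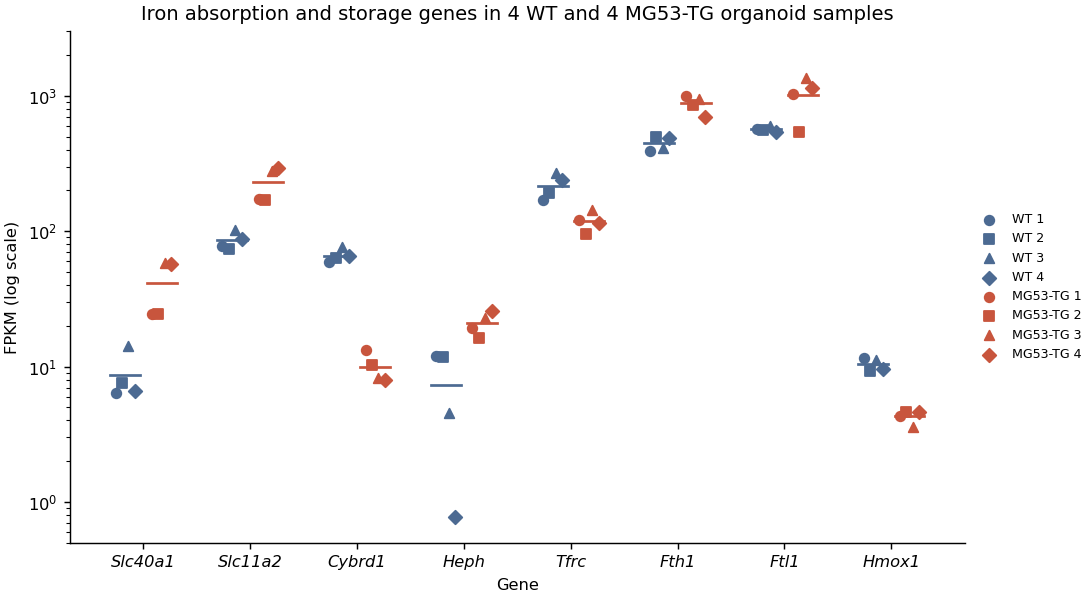
FPKM on a log axis for the 8 genes in each of the 4 WT (blue) and 4 MG53-TG (red) samples, with lines at the group means and marker shapes for samples 1 to 4. The groups are separate for every gene except Ftl1, where MG53-TG sample 2 (536 FPKM) lies below the WT samples, and Heph in WT sample 4 is the lowest value of the plot (0.768 FPKM).

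Cybrd1 (ENSMUSG00000027015; chr2:71117923-71142926, plus strand) encodes duodenal cytochrome b, the reductase that turns ferric into ferrous iron at the brush border. Its level was 59.7, 63.2, 75.8 and 65.6 FPKM in WT samples 1 to 4 and 13.2, 10.2, 8.29 and 7.89 FPKM in MG53-TG samples 1 to 4. Every WT sample lay far above every MG53-TG sample. The means were 66.1 ± 6.96 FPKM in WT and 9.90 ± 2.42 FPKM in MG53-TG (SD, n = 4), so the WT mean was 6.68 times the MG53-TG mean. On the log2(FPKM + 1) scale, which understates the change of low genes, it fell by 2.64 (SE 0.16, 95% interval -3.00 to -2.28, limma adjusted p = 6.81e-06). The gene has a single start and a single end in the files, which hold the same values.

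Slc11a2 (ENSMUSG00000023030; chr15:100387898-100425072, minus strand) encodes DMT1, the proton-coupled transporter through which ferrous iron enters the enterocyte. Its level was 77.8, 74.4, 103 and 88.2 FPKM in the WT and 174, 171, 279 and 295 FPKM in the MG53-TG samples. MG53-TG samples 3 and 4 were higher than samples 1 and 2, and all 4 exceeded every WT sample. The mean rose from 85.8 ± 12.8 to 230 ± 66.3 FPKM (SD, n = 4), 2.68-fold, with a log2 fold change of 1.38 (SE 0.20, 95% interval 0.91 to 1.84, limma adjusted p = 0.000922). The reductase and the transporter of the same luminal step thus moved in opposite directions between the groups.

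The files divide Slc11a2 between alternative first exons. The downstream start, chr15:100422962-100423055, belongs to the transcript Slc11a2-201, and the upstream start, chr15:100424104-100424214, to Slc11a2-207. FPKM at the downstream start was 42.5, 50.7, 63.3 and 41.9 in WT and 127, 89.9, 191 and 184 in MG53-TG. At the upstream start it was 35.1, 23.5, 39.2 and 45.7 in WT and 46.8, 80.9, 87.7 and 111 in MG53-TG. Both starts were separate between the groups, by a log2 difference of 1.51 at the downstream (limma adjusted p = 0.00393) and 1.13 at the upstream start (limma adjusted p = 0.0217), where 27.7% of 13412 start events were called. The call at the upstream start held in 4 of 8 fits that left out 1 sample. The downstream start held 57.9 ± 8.90% of the start FPKM in WT and 64.1 ± 8.82% in MG53-TG, a difference within the spread (exact permutation test, adjusted p = 0.619). None of 13 start shares of the 8 genes passed that test, and 0.619 was the lowest adjusted p.

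A single end is listed for Slc11a2, chr15:100387898-100389161, in the last exon of Slc11a2-201. It was at 7.20, 3.91, 7.23 and 5.34 FPKM in WT and 7.88, 6.68, 8.95 and 8.30 FPKM in MG53-TG. These groups overlap, and the log2 fold change of 0.40 did not pass the test (limma adjusted p = 0.120, where 39.3% of 8550 end events were called). The increase of Slc11a2 therefore rests on its start events, and with end events alone the gene was not called. The end event amounted to 9.25, 5.25, 7.03 and 6.05% of the start events in WT and to 4.52, 3.90, 3.21 and 2.81% in MG53-TG. Every MG53-TG sample was below every WT sample, with means of 3.61 ± 0.755% and 6.90 ± 1.73% (SD, n = 4; two-sided exact permutation p = 0.0286, the smallest that 70 relabellings can give). This ratio was chosen after its values were seen.

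Fth1 (ENSMUSG00000024661; chr19:9980598-9985098, plus strand) encodes the ferritin heavy chain, whose ferroxidase site loads iron into the shell. Its level was 389, 497, 414 and 485 FPKM in WT and 1001, 854, 955 and 703 FPKM in MG53-TG. All MG53-TG samples lay above all WT samples. The mean went from 446 ± 52.7 to 878 ± 132 FPKM (SD, n = 4), 1.97-fold, with a log2 fold change of 0.97 (SE 0.13, 95% interval 0.68 to 1.26, limma adjusted p = 0.000532). The single listed end rose alike, by 0.91 on the log2 scale (limma adjusted p = 0.00113).

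The start of Fth1 varied from sample to sample within both groups. The upstream start, chr19:9980598-9980890, was listed only in WT sample 1, at 232 FPKM, and in MG53-TG samples 1, 2 and 4, at 663, 596 and 514 FPKM. The downstream start, chr19:9982646-9982983, was listed in all samples, at 157, 496, 414 and 485 FPKM in WT and 338, 241, 955 and 188 FPKM in MG53-TG. In WT samples 2, 3 and 4 and in MG53-TG sample 3 it held over 99.9% of the start FPKM. With an absent start counted as 0, neither start was called alone (limma adjusted p = 0.202 for the upstream and 0.979 for the downstream start). The upstream start alone depended on MG53-TG sample 3, without which its log2 difference was 7.24 (limma adjusted p = 0.0420). Both forms carry the hairpin printed above, whose unpaired C is base 93 of the transcript Fth1-201 from the downstream start and base 664 of Fth1-203 from the upstream start.

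Ftl1 (ENSMUSG00000050708; chr7:45457944-45459884, minus strand) encodes the ferritin light chain, which forms the shell with the heavy chain and helps iron nucleate inside it. Its level, from the end event, was 568, 563, 595 and 542 FPKM in WT, a narrow range, and 1036, 536, 1345 and 1147 FPKM in MG53-TG. MG53-TG sample 2 was below all WT samples, whereas the other 3 exceeded them. In MG53-TG samples 1 and 3 the Ftl1 level includes an exon form listed in no other sample, at 534 and 598 FPKM. The means were 567 ± 21.6 and 1016 ± 344 FPKM (SD, n = 4), and the log2 fold change was 0.76 (SE 0.25, 95% interval 0.20 to 1.32, limma adjusted p = 0.0335). The exact permutation test gave p = 0.143. Without MG53-TG sample 2 the log2 difference became 1.04 (limma adjusted p = 0.000182), and the call was lost when any 1 of the other 7 samples was left out. The retrogene copy Ftl1-ps1 on chromosome 13, which can share reads with Ftl1, was listed only in the WT, at 1.34 to 2.02 FPKM.

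The ratio of heavy to light chain was 0.685, 0.882, 0.696 and 0.894 in WT and 0.966, 1.59, 0.710 and 0.613 in MG53-TG. The MG53-TG ratios spread to both sides of the WT ratios, and the log2 difference of 0.21 was within the spread (exact permutation p = 0.629).

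**Figure D2:**
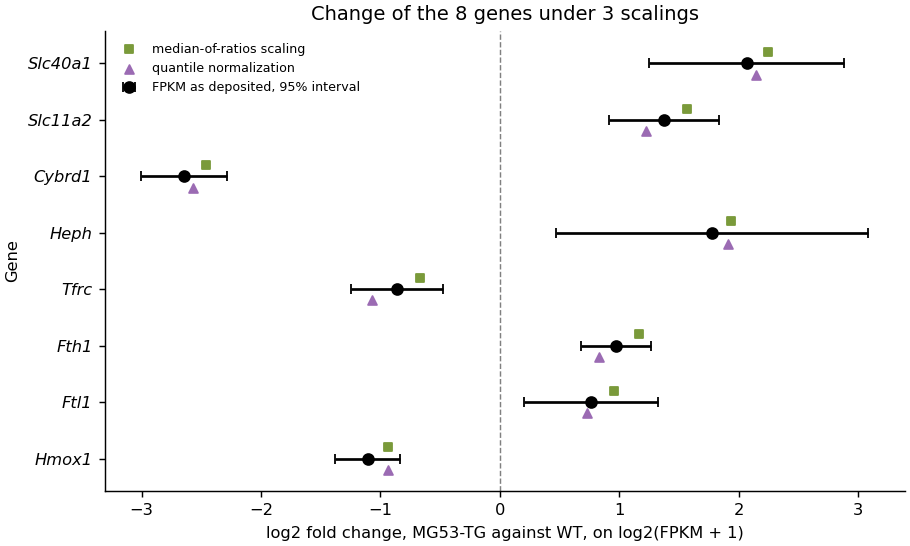
Log2 fold change of the 8 genes in MG53-TG against WT on log2(FPKM + 1), from the values as deposited with 95% intervals (black), after median-of-ratios scaling (green) and after quantile normalization (purple). All 3 scalings give the same direction for each gene, from 2.07 for Slc40a1 to -2.64 for Cybrd1 in the values as deposited.

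Slc40a1 (ENSMUSG00000025993; chr1:45908068-45926523, minus strand) encodes ferroportin, the only known exporter of iron from vertebrate cells. Its level was 6.37, 7.59, 14.1 and 6.60 FPKM in WT and 24.4, 24.4, 58.6 and 57.5 FPKM in MG53-TG. WT sample 3 stood above the other WT samples, MG53-TG samples 3 and 4 were higher than samples 1 and 2, and the groups were separate. The mean rose from 8.67 ± 3.66 to 41.3 ± 19.4 FPKM (SD, n = 4), 4.76-fold, with a log2 fold change of 2.07 (SE 0.36, 95% interval 1.25 to 2.89, limma adjusted p = 0.00213). Leaving out 1 sample at a time gave 1.86 to 2.31.

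Most ferroportin came from a single start, chr1:45925221-45925582, that of Slc40a1-201. It held between 88.8% and 99.7% of the start FPKM in each sample. The hairpin lies in this first exon, with its unpaired C at base 96 of Slc40a1-201, and is absent from the protein-coding transcripts Slc40a1-203, Slc40a1-205 and Slc40a1-206, which start upstream. The main start rose by 2.10 on the log2 scale (limma adjusted p = 0.00422). At the upstream start, chr1:45926424-45926523, FPKM was 0.294, 0.236, 1.58 and 0.381 in WT and 1.17, 0.132, 4.80 and 0.170 in MG53-TG. This start was highest in sample 3 of both groups and did not pass the test (log2 fold change 0.39, limma adjusted p = 0.633). The listed end, chr1:45908068-45909719, rose with the main start (log2 fold change 2.13, limma adjusted p = 0.00231).

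Heph (ENSMUSG00000031209; chrX:96455359-96574485, plus strand) encodes hephaestin, the copper ferroxidase of the basolateral side that oxidises the iron leaving through ferroportin. Its level was 12.002, 11.9, 4.52 and 0.768 FPKM in WT and 19.3, 16.4, 22.9 and 25.6 FPKM in MG53-TG. The MG53-TG samples were close together, whereas WT samples 3 and 4 were far below WT samples 1 and 2. The means were 7.29 ± 5.58 and 21.1 ± 4.05 FPKM (SD, n = 4), a 2.89-fold difference with a log2 fold change of 1.78 (SE 0.58, 95% interval 0.47 to 3.09, limma adjusted p = 0.0340). Without WT sample 4 the log2 difference became 1.16 (limma adjusted p = 0.0247), and without WT samples 3 and 4 it became 0.75 (limma adjusted p = 0.0343). The direction was the same in all fits, but the adjusted p passed 0.05 in only 4 of 8 fits that left out 1 sample. The call was also lost with a pseudocount of 0.1 (limma adjusted p = 0.0525) and with no filter on low values (0.0516). It was lost as well with the replicate number as a block (0.0538) and with end events only (0.0574).

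The low WT samples also differed in where Heph began. The first start, chrX:96455359-96455713, held 97.0% and 97.6% of the start FPKM in WT samples 1 and 2, but 0.00655% and 0.903% in WT samples 3 and 4. In MG53-TG it held 94.6 to 96.7%. At the second start, chrX:96456373-96456615, FPKM was 0.361, 0.283, 4.52 and 0.761 in WT and 0.788 to 0.879 in MG53-TG. Between the groups, the difference in this share did not pass the exact permutation test (adjusted p = 0.619).

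**Figure D3:**
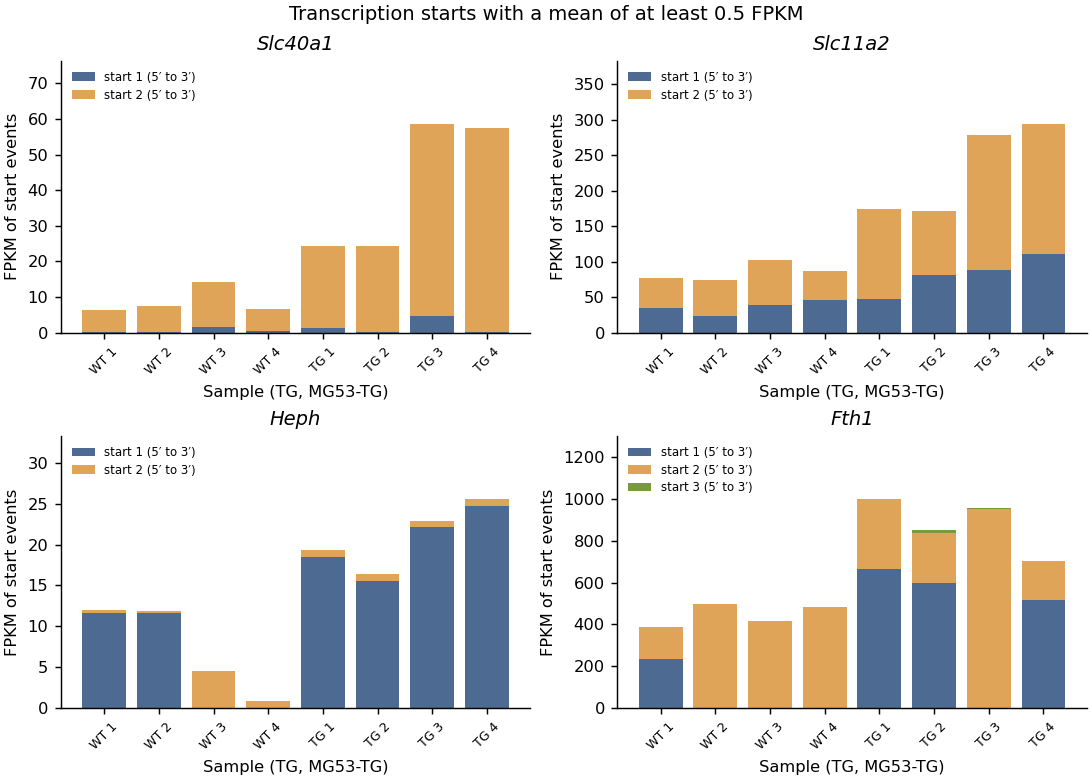
FPKM of the transcription start events of Slc40a1, Slc11a2, Heph and Fth1 in each sample, stacked from 0 and numbered 5′ to 3′, for starts with a mean of at least 0.5 FPKM. Slc40a1 comes almost wholly from its second start in all samples, both Slc11a2 starts are higher in MG53-TG, the first start of Heph is nearly absent in WT samples 3 and 4, and the first start of Fth1 is present in WT sample 1 and MG53-TG samples 1, 2 and 4.

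Tfrc (ENSMUSG00000022797; chr16:32608920-32632794, plus strand) encodes transferrin receptor 1, which takes up transferrin-bound iron and is high in dividing cells. Its level was 170, 191, 269 and 240 FPKM in WT and 120, 94.7, 144 and 115 FPKM in MG53-TG. Every MG53-TG sample was below every WT sample. The means were 217 ± 44.8 and 119 ± 20.4 FPKM (SD, n = 4), so the WT mean was 1.83 times the MG53-TG mean. It fell by 0.86 on the log2 scale (SE 0.17, 95% interval -1.25 to -0.47, limma adjusted p = 0.00412). The listed end, chr16:32630094-32632794, spans all 4 printed hairpins and fell by 0.84 (limma adjusted p = 0.00544). Of 7 proliferation markers, 6 were lower in MG53-TG, where 29.2% of all genes tested were called lower. Their summed level was 419 to 462 FPKM in WT and 121 to 325 FPKM in MG53-TG, and their part in the Tfrc result was not tested.

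Hmox1 (ENSMUSG00000005413; chr8:75093621-75100589, plus strand) encodes heme oxygenase 1, the inducible enzyme that opens the heme ring and releases its iron. Its level was 11.5, 9.22, 11.2 and 9.67 FPKM in WT and 4.31, 4.63, 3.60 and 4.65 FPKM in MG53-TG. The groups were tight and separate. The means were 10.4 ± 1.14 and 4.30 ± 0.491 FPKM (SD, n = 4), with a ratio of WT to MG53-TG of 2.42, and the gene fell by 1.11 on the log2 scale (SE 0.12, 95% interval -1.38 to -0.83, limma adjusted p = 0.000165). Macrophages also use Hmox1 and Slc40a1. Of 7 macrophage and other immune markers, Adgre1, Csf1r, Spic, Cd163 and Cd74 had no entry and Ptprc was near 0. Only Cd68 passed the filter on low values, and the summed level of the list was 3.75 to 9.08 FPKM in WT and 0.469 to 1.28 FPKM in MG53-TG.

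Since FPKM is per length of transcript, the levels can be set side by side between genes. In WT the order of the mean FPKM was Ftl1, Fth1, Tfrc, Slc11a2, Cybrd1, Hmox1, Slc40a1 and Heph. The samples of Slc11a2 overlapped those of Cybrd1, those of Hmox1 overlapped those of Slc40a1, and those of Slc40a1 overlapped those of Heph, while the other neighbours were separate. In MG53-TG the order was Ftl1, Fth1, Slc11a2, Tfrc, Slc40a1, Heph, Cybrd1 and Hmox1. Only Ftl1 with Fth1 and Slc40a1 with Heph overlapped there. Cybrd1 thus stood at rank 5 in WT and at rank 7 in MG53-TG, and Slc11a2 stood above Tfrc only in MG53-TG. This order of Slc11a2 holds for start events. By the listed ends, its mean was 5.92 FPKM in WT and 7.95 FPKM in MG53-TG, below the Tfrc ends at 185 and 102 FPKM.

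For each of the 8 genes, the gene with the nearest profile was found among 9957 others, by the root mean square difference of log2(FPKM + 1) values centred on each gene's own mean over the 8 samples. Mall was nearest to Slc11a2 (0.0532), Alkbh5 to Hmox1 (0.0979) and Tom1l2 to Ftl1 (0.1004). Tom1l2 dropped with Ftl1 in MG53-TG sample 2, to 4.86 FPKM against 11.6 to 13.5 FPKM in the other MG53-TG samples. Cxcl16 was nearest to Tfrc (0.115), Phlda1 to Cybrd1 (0.123), Chka to Fth1 (0.127) and Slc7a15 to Slc40a1 (0.168). Slc7a15 was a low gene, at 0 to 0.486 FPKM in WT and 1.74 to 5.13 FPKM in MG53-TG. Its likeness to Slc40a1 therefore depends on the added 1 FPKM. The log2 fold change of Slc7a15 ranged from 1.70 to 4.33 over the alternatives listed below. The profile of Heph had no close match, since its nearest gene, Slco2b1, differed by 0.509. These figures describe likeness over 8 samples of 2 groups and carry no test.

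Another 81 iron and heme genes in 6 lists by role give the setting of the 8. Of these, 67 had a value and 61 passed the filter on low values. Among the 61, 18 were higher, 11 were lower and 32 were not called in MG53-TG. That is 47.5% called, beside 44.7% of all genes tested, of which 15.5% were higher and 29.2% lower. The same shares over all genes stand beside the counts of each list below. These lists, too, were chosen with earlier results of these data known. The median log2 fold change was 0.04, beside -0.17 over all genes tested. Leaving out WT sample 2 lowered the count of higher genes from 18 to 11. Of the genes named below, Keap1 was called in 7, Alas1 in 5, Pcbp4 and Hscb in 3 and Gclm in 2 of the 8 fits that left out 1 sample. The other genes named for the size of their change were called in all 8 fits, and the values of Epas1 in these fits are not reported here. Not analysed here, for want of an entry, were Steap4, Scara5, Lrp2, Abcb6, Pcbp1, Ftmt, Hephl1, Hif1a, Hamp, Hjv, Tmprss6, Bmp6, Isca1 and Lcn2.

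Among genes of uptake and reduction, 4 of 8 tested were higher and 2 were lower. Slc46a1, the folate transporter that also carries heme, had the largest increase of this list, from 3.31 to 3.81 FPKM in WT to 9.40 to 20.1 FPKM in MG53-TG (log2 fold change 1.68, limma adjusted p = 0.000768). Slc39a14, which encodes the metal importer ZIP14, rose by 0.89 (limma adjusted p = 7.18e-05), and Slc48a1, which encodes the heme transporter HRG1, by 0.48 (limma adjusted p = 0.00492). The metalloreductases Steap2 and Steap3 moved down with Cybrd1, whereas Steap1 was not called (log2 fold change -0.22, limma adjusted p = 0.384). Steap2 fell by 0.71 (limma adjusted p = 0.00683) and Steap3 by 0.80 (limma adjusted p = 0.00766).

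In heme export, synthesis and breakdown, 3 of 13 tested genes were higher and 1 was lower. Abcg2, a porphyrin and drug exporter of the apical membrane, went from 8.60 ± 1.72 to 24.1 ± 5.59 FPKM (SD, n = 4; log2 fold change 1.38, limma adjusted p = 0.000523). Alas1, the first enzyme of heme synthesis, rose by 0.87 (limma adjusted p = 0.0261), and Flvcr1, a heme exporter, by 0.46 (limma adjusted p = 0.0169). With end events only, Alas1 was not called (log2 fold change 0.82, limma adjusted p = 0.0705). Hmox2, the constitutive heme oxygenase, was at 22.6 to 49.9 FPKM in WT and 24.9 to 54.8 FPKM in MG53-TG and was not called.

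Of 5 tested genes of cytosolic iron handling, only Pcbp4, of the family of poly(C)-binding proteins that includes iron chaperones, was called (log2 fold change 0.50, limma adjusted p = 0.0366). With the replicate number as a block, Pcbp4 was not called (limma adjusted p = 0.0646). Ncoa4, the receptor that delivers ferritin to autophagy, was lowest in sample 4 of both groups, at 8.36 FPKM in WT and 5.64 FPKM in MG53-TG, and lay between 41.8 and 65.4 FPKM in the other 6 samples. It was not called.

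Among genes of iron sensing and regulation, 2 of 13 tested were higher and 3 were lower. The mRNAs of both iron regulatory proteins did not pass the test. Aco1 was at 35.7 ± 3.23 FPKM in WT and 36.6 ± 5.27 FPKM in MG53-TG (log2 fold change 0.03, limma adjusted p = 0.860, 95% interval -0.25 to 0.31). Ireb2 was at 25.2 ± 2.69 and 24.3 ± 0.531 FPKM (log2 fold change -0.05, limma adjusted p = 0.718, 95% interval -0.27 to 0.17). Epas1 was called higher (log2 fold change 0.53, limma adjusted p = 0.0377), although the samples of its groups overlapped. Of the HIF prolyl hydroxylases, Egln3 and Egln1 were lower and Egln2 was not called (log2 fold change -0.03, limma adjusted p = 0.840). Egln3 went from 149 ± 18.7 to 50.5 ± 16.3 FPKM (log2 fold change -1.59, limma adjusted p = 0.000638), and Egln1 fell by 0.74 (limma adjusted p = 0.00168). Nfe2l2, the oxidative stress factor NRF2 that drives ferritin and Hmox1 genes, rose by 0.39 (limma adjusted p = 0.0138). Its inhibitor Keap1 fell by 0.35 (limma adjusted p = 0.0181), but was not called after median-of-ratios scaling (log2 fold change -0.16), after quantile normalization (-0.22) or with start events only (-0.48, limma adjusted p = 0.0527).

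Of 13 tested genes of mitochondrial iron and iron-sulfur clusters, 4 were higher and 1 was lower. Iscu, the scaffold on which clusters are built, went from 18.6 ± 0.719 to 31.9 ± 1.09 FPKM (log2 fold change 0.74, limma adjusted p = 0.000164). Slc25a37, which encodes the mitochondrial iron importer mitoferrin-1, rose by 0.47 (limma adjusted p = 0.0143), and the cochaperone Hscb by 0.54 (limma adjusted p = 0.0416). The call of Hscb was lost with no filter on low values (limma adjusted p = 0.0544) and with the replicate number as a block (0.0528). Without WT sample 4 the log2 fold change of Hscb was 0.34.

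Among NRF2 target genes and genes of ferroptosis, the cell death that iron-driven lipid peroxidation causes, 4 of 9 tested were higher and 4 were lower. Gpx4, the peroxidase that clears lipid peroxides, went from 75.7 ± 2.93 to 181 ± 36.8 FPKM (log2 fold change 1.23, limma adjusted p = 0.000205). Acsl4, which loads membranes with oxidisable fatty acids, went from 8.12 ± 0.358 to 1.26 ± 0.523 FPKM and fell by 2.04 on the log2 scale (limma adjusted p = 4.59e-05). The cystine importer Slc7a11 fell by 1.35 (limma adjusted p = 0.000364). Targets of NRF2 went both ways: Nqo1 rose by 0.55 (limma adjusted p = 0.00518) and Gclm by 0.68 (limma adjusted p = 0.0445), whereas Gclc fell by 0.62 (limma adjusted p = 0.00125). Gclm was not called with no filter on low values (limma adjusted p = 0.0615), and with end events only its log2 fold change was 0.16 (limma adjusted p = 0.617).

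**Figure D4:**
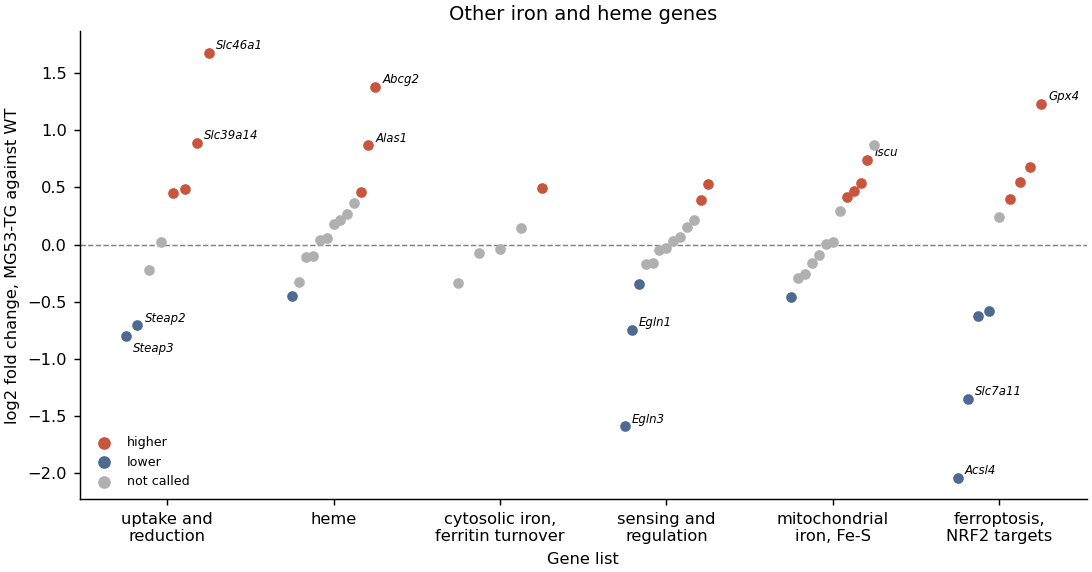
Log2 fold change in MG53-TG against WT of 61 other iron and heme genes in 6 lists by role; each point is a gene, red where called higher, blue where called lower and grey where not called. Slc46a1 (1.68) and Abcg2 (1.38) have the largest increases, and Acsl4 (-2.04), Egln3 (-1.59) and Slc7a11 (-1.35) the largest decreases.

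Some markers of other cell types also differed between the groups. All 5 tested Paneth cell markers were lower in MG53-TG, with a summed level of 1222 to 1637 FPKM in WT and 258 to 459 FPKM in MG53-TG. Of 6 tested goblet markers 4 were lower, and of 6 tested enteroendocrine markers 3 were higher. Of all genes tested, 44.7% were called, 29.2% lower and 15.5% higher. The study's text reports higher secretory markers in MG53;Lgr5 crypt organoids. The Paneth markers and the called goblet markers here ran the other way, whereas the called enteroendocrine markers, also secretory, were higher. These lists were chosen here rather than taken from the study. Of 4 tested genes of the proximal small intestine, where most iron is absorbed, Onecut2 and Creb3l3 were higher, Gata5 was lower and Gata4 was not called. Of 4 tested ileal genes, Gucy2c and Nr1h4 were higher, Slc10a2 was lower and Osr2 was not called. Erythroid markers summed to at most 3.61 FPKM in any sample, and Alb, which defines hepatocytes, was at 0.521 to 0.883 FPKM in WT and had no entry in MG53-TG. Ttr, another gene of the hepatocyte list, was at 33.3 to 37.9 FPKM in WT and 27.5 to 39.8 FPKM in MG53-TG and was not called.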

How the data were processed

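RNA from intestinal organoids was extracted with TRIzol and sequenced on an Illumina platform. Per the labels and the study's methods, the authors trimmed reads with cutadapt 1.9.1 and mapped them with HISAT2 2.0.1 to mm10. The deposited FPKM values were normalized by the authors, with HTSeq 0.6.1 named for that step. They were given per transcript event, and the tool that defined the events is not given in the sources used here. FPKM computed from an assembled transcript model depends on how reads are divided among overlapping transcripts. How far this bears on single starts and ends or on a gene's sum was not tested.

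Rows were taken by Ensembl gene ID, and start and end events were kept where an exon boundary was one of the gene's own in GENCODE M21 (GRCm38), as for 85.3% of 49773 such events. For Slc40a1, 2 rows on the opposite strand were left out. An absent value counted as 0 unless the rest of the group reached a median of 0.5 FPKM, in which case it counted as missing, and none of the 8 genes was affected. Genes whose mean reached 0.5 FPKM were compared as log2(FPKM + 1) by lmFit and eBayes (trend) of limma 3.58.1 under R 4.3.3, and p-values were adjusted by Benjamini-Hochberg over all these genes, with a threshold of 0.05. Start and end events were fitted separately with the same model and filter, but an event absent from a sample always counted as 0. Single ratios and shares were compared by two-sided exact permutation over 70 relabellings. Since whole reads could not be recovered from values as small as 1e-06, no count test was run, depth is unknown and no counting interval is given. Python 3.11.15, numpy 2.4.6, pandas 2.3.3 and matplotlib 3.10.9 were used for the rest.

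The fit was tested on simulated data for MG53-TG against WT. Among 9965 genes, 200 were changed, with log2 changes of 1 and 2 in equal parts. At a log2 change of 1, 62% were recovered, and at a log2 change of 2, 92%. Of the unchanged genes, 5 were called. The simulation changed a far smaller share than the 44.7% of genes called in the data, so recovery in the data may differ. Members and lists were chosen with earlier results of these data known. Named genes were the 8 genes, Trim72, from each wider list up to 3 called genes with the largest increase and 3 with the largest decrease whose groups did not overlap, genes without an entry, the nearest profile to each of the 8 and cell type markers. Outside this rule, Aco1, Ireb2, Epas1, Egln2, Steap1, Hmox2, Ncoa4 and Ftl1-ps1 were named after their values were seen. The alternatives were a pseudocount of 0.1, a filter at 2 FPKM or none, quantile normalization, median-of-ratios scaling, a replicate block, start or end events only, genes by exon coordinates, absent values as 0 and leaving out each sample. The values of 2 genes that the rule names are not reported here.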

Additional observations from a re-analysis of the deposited data

Results flagged for a closer look

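Slc40a1 in WT sample 3, at 14.1 FPKM, stood far above the other WT samples, which lay between 6.37 and 7.59 FPKM. Of 20 groups of values tested in this way, chance alone is expected to mark 1. The change of Slc40a1 was called with that sample left out.

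An alternative exon end of Ftl1, chr7:45458535-45458657, which was not compared on its own, reached 534 FPKM in MG53-TG sample 1 and 598 FPKM in MG53-TG sample 3. It had no entry in the other 6 samples, WT included. The usual form of this exon, chr7:45458535-45458660, was at 502 and 747 FPKM in those MG53-TG samples and at 540 to 593 FPKM in the WT. In MG53-TG samples 2 and 4 it was at 536 and 1147 FPKM. The form seen only in MG53-TG samples 1 and 3 is part of their Ftl1 values, 1036 and 1345 FPKM, which were compared. The difference of either form between the groups was not tested.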

How the results depend on the processing

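Cybrd1, Slc40a1, Fth1, Tfrc and Hmox1 kept their direction and their call under all 18 alternatives, with log2 fold changes of -2.78 to -2.46, 1.86 to 2.31, 0.83 to 1.16, -1.07 to -0.67 and -1.26 to -0.94. Slc11a2 lost its call with end events only (0.40). Heph lost its call with a pseudocount of 0.1 (2.09), with no filter (1.78), with the replicate block (1.78) and with end events only (1.97), and Ftl1 with no filter (0.76). With end events only, 7 wider iron and heme genes were lower instead of 11. Log2 fold changes of single starts that were not called changed sign: Fth1 at 9982646 after median-of-ratios scaling (0.0755), Heph at 96456373 (0.0247) and Ftl1 at 45459324 (-0.22) with a pseudocount of 0.1. The cause was not tested.

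Leaving out 1 sample gave 0.60 to 1.04 for Ftl1 and for its end and main start, 1.16 to 2.12 for Heph, 1.18 to 2.39 for its end, 1.95 to 3.17 for its first and -0.37 to 0.33 for its second start, 0.95 to 1.38 for the upstream Slc11a2 start, 4.11 to 7.24 for the upstream and -0.51 to 0.27 for the downstream Fth1 start, -0.12 to 0.67 for the upstream Slc40a1 start and -0.42 to 0.000164 for the Tfrc start at 32624442. The log2 ratio of Fth1 to Ftl1 lay between -0.0638 and 0.40, reversing without MG53-TG sample 2. The log2 Slc11a2 end to start ratio lay between -1.04 and -0.77 (exact permutation p up to 0.0571) and was -0.92 with the replicate block, where the smallest p is 0.125. Differences in start shares, in percentage points, were -0.0432 to 0.00589 and -0.00589 to 0.0432 for Ftl1, and -0.272 to 0.0882 and -0.0607 to 0.297 for Tfrc. They were 2.61 to 9.93 for the downstream Slc11a2, 1.11 to 4.35 for the main Slc40a1, 30.8 to 63.3 for the first Heph and 30.4 to 54.8 for the upstream Fth1 start, and no share passed the test in these fits. The wider list had 11 to 16 genes higher, with 11 without WT sample 2.

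The replicate numbers did not pair the samples, with correlations of same-numbered deviations of 0.0917, -0.00302, 0.0939 and -0.0505, and 2 of 4 samples nearest to their own number. With the replicate block 4196 genes were called instead of 4596, and Pcbp4 (adjusted p = 0.0646) and Hscb (0.0528) were not called. Over all alternatives this count was 3465 to 4858. Without read counts, the precision of low values such as those of Heph cannot be stated.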

Other observations

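Beyond starts and ends, the files list the intron of Fth1 at chr19:9984327-9984560 as both spliced and retained. Transcripts that retain it were at 36.2, 30.9, 46.9 and 35.2 FPKM in the 4 WT and 134, 133, 63.1 and 49.96 FPKM in the 4 MG53-TG samples. The main form that splices it was at 350, 448, 355 and 437 FPKM in WT and 816, 599, 863 and 624 FPKM in MG53-TG. Another spliced form, whose next exon ends at 9984743, was at 2.42, 16.3, 10.7 and 11.9 FPKM in WT. In MG53-TG it was at 49.7, 105, 26.6 and 26.5 FPKM. A further spliced form stayed between 0.536 and 1.92 FPKM in all samples. The retained form, the main spliced form and the one ending at 9984743 were thus higher in every MG53-TG sample than in any WT sample. These forms are parts of the Fth1 value, which was itself higher in every MG53-TG sample. Their shares of it were not compared, so a change in intron retention is not shown. The retained form was higher in MG53-TG samples 1 and 2 than in samples 3 and 4. No test was run on these values.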
